A study of Physcomitrium patens with 3 samples.

Results

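Double-stranded RNA reads of a moss rdr2 mutant were compared with those of wild type over nuclear genomic regions. A region is a run of listed nuclear loci in which each lies within 10 kb of the next, and its value is the sum of the reads of its loci. The 39907 nuclear loci merged into 14148 regions, of which 2063, or 14.6%, had 20 or more reads over the 2 libraries and were examined. These 2063 regions lay on 496 of 1024 scaffolds and took in 9917 loci. Of the other 12085 regions, 7316 had no read in either library. Members were chosen by their reads in the very libraries compared, so membership itself is no result. At the minimum, the 30 regions with exactly 20 reads had a median log2 ratio of rdr2 to wild type of 0.33 (−4.47 to 2.76), and the 27 regions with 19 reads, just left out, had a median of 0.45 (−1.35 to 2.29).

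The tissue was protonemata of Physcomitrium patens, the branched filaments that grow from a moss spore, at 10 days of age. Libraries were made from total RNA of rdr2, of rdr6 and of wild type, with 1 library per genotype, and all were grown alike with no treatment. The labels give the genotype by name and do not describe the alleles or say how many plants or lines were used. After depletion of ribosomal RNA, RNase One, a nuclease that cuts single strands, was used to leave base-paired RNA for sequencing. The labels allow 1 or 2 rounds of depletion and do not say which a library had. The table deposited for rdr2 is named after a different rdr gene and was taken here as rdr2, as the sample's label has it. Its loci carry no gene names, so the RDR2 gene itself could not be examined. Since each genotype has 1 library, differences were neither replicated nor tested, and intervals cover counting error only.

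RDR2 is an RNA-dependent RNA polymerase, which copies a single-stranded RNA into a double strand. In plants it works on transcripts of transposons and other repeats, and the double strands are cut by Dicer-like enzymes into heterochromatic small interfering RNAs that guide DNA methylation. RDR6 does the same copying for other transcripts, among them the precursors of trans-acting small interfering RNAs. Double strands also form without either enzyme, where an RNA folds back on itself or where both strands of a locus are transcribed.

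Libraries were scaled to their nuclear reads outside the 400 loci with most reads over the 3 libraries. These scaling reads numbered 80477 in rdr2 (1.09% of its nuclear reads), 212247 in rdr6 (3.96%) and 149017 in wild type (3.56%). A scaled level is given as reads per 100000 scaling reads, so that 1 read is worth 1.24 in rdr2, 0.471 in rdr6 and 0.671 in wild type. The ratio of rdr2 to wild type on this scale is 2.57-fold above the ratio of the deposited RPM values, a difference of 1.36 in log2. Counts in the loci were 8698124 reads for rdr2, 8078929 for rdr6 and 5926254 for wild type.

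Most regions had scaled levels in rdr2 within 2-fold of those in wild type. The median log2 ratio over the 2063 regions was −0.04 (order-statistic 95% interval over regions −0.09 to 0.01), and 1280 regions, 62.0%, lay within 2-fold. A region was called lower or higher when rdr2 was at least 4-fold below or above wild type and the exact Clopper-Pearson 95% interval of the ratio lay wholly beyond 2-fold. By this size rule 147 regions (7.13%) were lower in rdr2 and 71 (3.44%) were higher, 10.6% together. Of these, 57 were over 8-fold lower and 18 over 8-fold higher. The 57 include 22 regions without an rdr2 read and the 18 include 1 without a wild-type read. The folds of these regions have no finite size. Without a limit on fold, the interval lay wholly below 1 in 601 of the 2063 regions, wholly above 1 in 466 and included 1 in 996. The 147 lower regions were spread over 109 scaffolds and the 71 higher ones over 66.

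The centre of the ratios and the balance of calls rest on the scaling. On the RPM scale the median log2 ratio was −1.41, and 615 regions were lower and 13 higher, so that 97.9% of calls were lower against 67.4% above, and with all nuclear reads 824 were lower and 7 higher. Scaling to nuclear reads outside the 100 loci with most reads gave 80 lower and 107 higher, or 42.8% lower. Each of the 6 other scalings tried shifts all ratios alike, by less than the 4-fold of the size rule, so none can turn the direction of a called region. Differences below are differences relative to the bulk of nuclear regions.

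**Figure D1:**
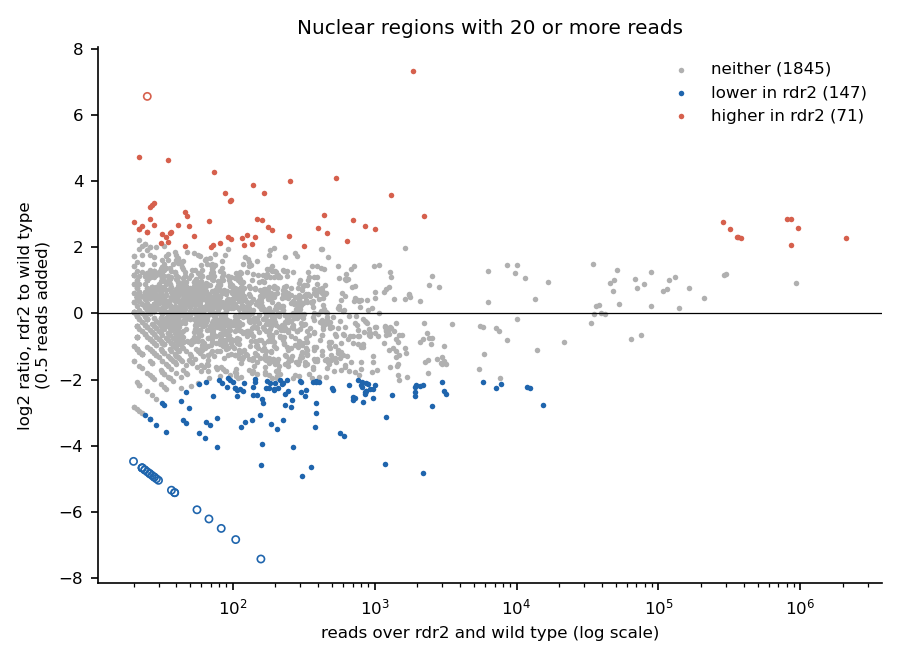
Log2 ratio of rdr2 to wild type (0.5 reads added to each count) against the reads of both libraries (log axis) for each of the 2063 regions. Blue points are the 147 regions lower in rdr2, orange points the 71 higher and grey points the 1845 others, and open circles have no read in 1 of the libraries. The orange points at the far right are 10 regions of 10000 or more reads.

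Lower regions had a median scaled level of 19.9 in rdr2 and 117 in wild type, with 125 in the rdr6 library. The gap between rdr2 and wild type follows from the size rule that picked these regions. The lowest of all by the interval was the region of Cluster_35061 to Cluster_35063 (scaffold_336, 25480 to 27686). It had 0 reads in rdr2, 51 in rdr6 and 158 in wild type. With rdr2 set to its floor of 3 reads, it was at least 28.4-fold lower, with an exact interval that starts at 22.9-fold. The region passed the read minimum through wild type alone, which puts any such region past the size rule, so its call is no result. The single locus Cluster_39749 (scaffold_2377, 29 to 251) had 41 reads in rdr2, 3682 in rdr6 and 2166 in wild type, and its scaled level was 28.5-fold lower in rdr2 than in wild type (21.0 to 39.9). It was low in rdr2 alone, since the scaled level was 50.9 there, 1735 in rdr6 and 1454 in wild type. The region of Cluster_8974 to Cluster_8976 (scaffold_34, 2135023 to 2140784) had 26 reads in rdr2, 1228 in rdr6 and 1150 in wild type and was 23.9-fold lower (16.2 to 36.7).

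Further regions with few rdr2 and many rdr6 reads were those of Cluster_27980 to Cluster_27985 (scaffold_201, 614563 to 626574), Cluster_37312 (scaffold_410, 29097 to 29251) and Cluster_28338 to Cluster_28344 (scaffold_207, 620659 to 629843). The scaffold_201 region had 5 reads in rdr2, 269 in rdr6 and 303 in wild type, 32.7-fold lower in rdr2 than in wild type (13.9 to 102). Cluster_37312 had 7 reads in rdr2, 456 in rdr6 and 348 in wild type, 26.8-fold lower (12.9 to 67.3). The scaffold_207 region had 24 reads in rdr2, 956 in rdr6 and 587 in wild type, 13.2-fold lower (8.79 to 20.8). Its loci Cluster_28338 and Cluster_28339, of 606 and 1684 bp, were both lower by the size rule, 12.4-fold and 15.5-fold.

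The region of Cluster_17995 and Cluster_17996 (scaffold_91, 268803 to 275516) was instead low in both mutant libraries, with 3 reads in rdr2, 12 in rdr6 and 155 in wild type. It was 27.9-fold lower in rdr2 than in wild type (9.37 to 137). The region of Cluster_13394 and Cluster_13395 (scaffold_59, 1579789 to 1580153) likewise had 0 reads in rdr2, 2 in rdr6 and 105 in wild type. Cluster_29844 (scaffold_231, 285910 to 285924) had 0 reads in rdr2, 3 in rdr6 and 83 in wild type. The regions on scaffold_59 and scaffold_231 passed the read minimum through wild type alone, so their calls are no result. Both mutants are set here against the same wild-type library.

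No rdr2 read was found in 22 of the 2063 regions. They passed the read minimum through wild type alone, which puts any such region past the size rule, so their calls are no result. Their wild-type counts ran between 20 and 158 with a median of 28, which makes them at least 3.60-fold to 28.4-fold lower against the floor of 3 rdr2 reads. In 14 of the 22 the rdr6 library had 10 or more reads, up to 90 at Cluster_39036 (scaffold_641, 12737 to 12779), which had 0 in rdr2 and 68 in wild type and was at least 12.2-fold lower in rdr2. Cluster_10542 (scaffold_42, 2024632 to 2024648) had 0 reads in rdr2, 74 in rdr6 and 56 in wild type, at least 10.1-fold lower. A read is less often missed in wild type, which at equal level would give 64.9% of the reads of a region, so the number of regions without a read cannot be compared between the libraries. The 1 region with no wild-type read was Cluster_8043 (scaffold_30, 1468921 to 1468926), a locus of 6 bp with 25 reads in rdr2, 2 in rdr6 and 0 in wild type. It was at least 15.4-fold higher in rdr2 with wild type set to its floor of 3 reads, with an exact interval that starts at 11.6-fold. This region passed the read minimum through rdr2 alone, which likewise puts any such region past the size rule, so its call is no result.

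Higher regions had a median scaled level of 104 in rdr2 and 14.8 in wild type, with 16.5 in rdr6. Here too the gap between rdr2 and wild type follows from the size rule. The largest ratio with a finite size belonged to the region of Cluster_15636 and Cluster_15637 (scaffold_74, 275532 to 276105). Its scaled level was 2300.04 in rdr2, 28.7 in rdr6 and 14.1 in wild type, from 1851 reads in rdr2, 61 in rdr6 and 21 in wild type, 163-fold above wild type in rdr2 (106 to 264). All these rdr2 reads lay in Cluster_15637, of 15 bp. The region of Cluster_3107 to Cluster_3116 (scaffold_9, 2678979 to 2714952) had 481 reads in rdr2, 68 in rdr6 and 52 in wild type and was 17.1-fold higher (12.8 to 23.3). Here Cluster_3109, of 296 bp, held 450 of the rdr2 reads and was 49.01-fold higher (30.3 to 84.9), whereas its neighbour Cluster_3113 had 18 reads in rdr2 and 16 in wild type.

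The region of Cluster_3328 and Cluster_3329 (scaffold_10, 2283623 to 2285227) had 1123 reads in rdr2, 269 in rdr6 and 172 in wild type, 12.1-fold higher (10.3 to 14.3). That of Cluster_32743 to Cluster_32746 (scaffold_281, 105657 to 116592) had 229 reads in rdr2, 43 in rdr6 and 26 in wild type, 16.3-fold higher (10.8 to 25.5). Cluster_28301 (scaffold_206, 710067 to 710082) had 68 reads in rdr2 and 6 in each of rdr6 and wild type, 21.0-fold higher (9.16 to 59.2). In all 3 the rdr2 level stood apart from the others, for example in the scaffold_10 region of Cluster_3328 and Cluster_3329, with scaled levels of 1395 in rdr2, 127 in rdr6 and 115 in wild type. There Cluster_3329, of 17 bp, held 1122 of the rdr2 reads and all 172 wild-type reads.

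Regions of longer loci were also among the highest. That of Cluster_8388 to Cluster_8392 (scaffold_32, 915240 to 942312) had 123 reads in rdr2, 26 in rdr6 and 15 in wild type, 15.2-fold higher (8.86 to 28.0). That of Cluster_20852 to Cluster_20855 (scaffold_115, 651340 to 662355) had 144 reads in rdr2, 26 in rdr6 and 21 in wild type, 12.7-fold higher (8.00 to 21.1). The region of Cluster_5405 and Cluster_5406 (scaffold_18, 1687978 to 1688541) had 33 reads in rdr2, 11 in rdr6 and 2 in wild type, a ratio of 30.6 with an interval of 7.81 to 263. On the RPM scale each of these folds above wild type is 2.57 times smaller, and each fold below wild type 2.57 times larger.

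**Figure D2:**
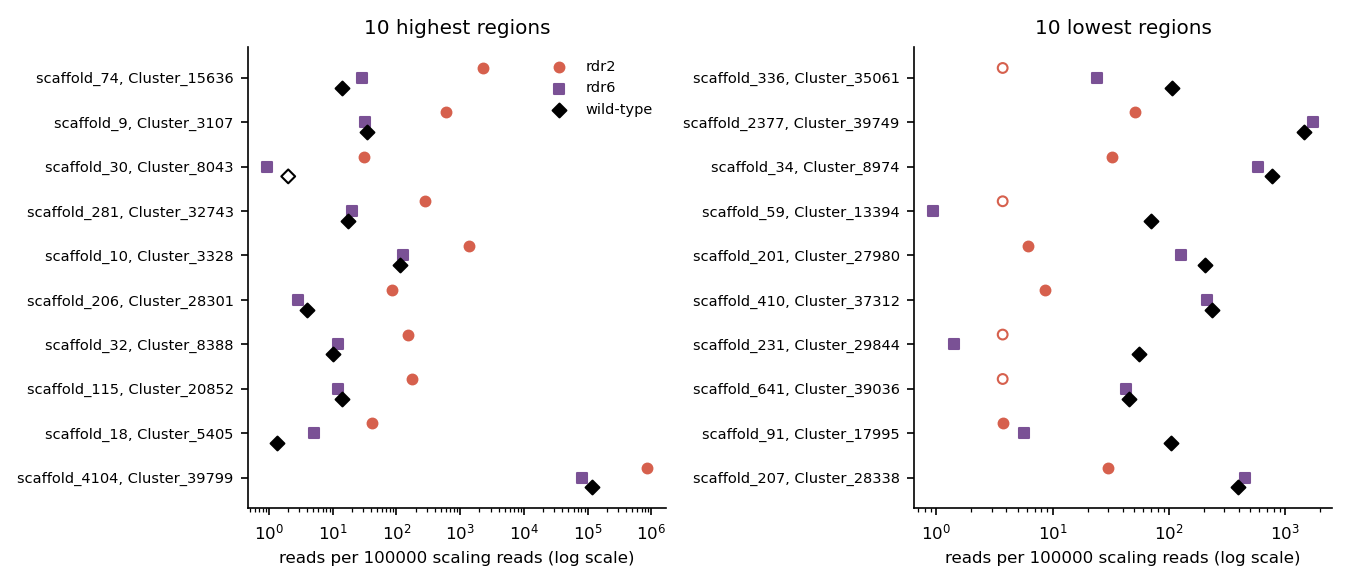
Scaled level (reads per 100000 scaling reads, log axis) in rdr2 (orange circles), rdr6 (purple squares) and wild type (black diamonds) for the 10 regions highest and the 10 lowest in rdr2 by the interval bound nearest to 1. Open symbols mark a library without a read, drawn at its floor of 3 reads. In the left panel the rdr2 symbol lies right of both others in every row, and in the right panel rdr6 lies near wild type in most rows but clearly below it at Cluster_35061, Cluster_13394, Cluster_29844 and Cluster_17995.

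Called regions were often read at very short loci. The locus that held most reads of the region was 30 bp or shorter in 36 of the 71 higher regions (50.7%) and in 43 of the 147 lower regions (29.3%), against 334 of the 1845 others (18.1%). The 147 include the 22 regions without an rdr2 read, and the 71 include the 1 region without a wild-type read. The calls of both kinds are no result. In 12 of those 22 no locus was longer than 30 bp, which raises the share of short loci among lower regions. It was 31 to 200 bp long in 72 of the lower regions (48.98%) and in 9 of the higher (12.7%), against 503 of the others (27.3%). Its median length was 110 bp in the lower regions, 29 bp in the higher and 242 bp in the others. The sources used here do not say how the authors delimited such short loci.

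Along length, the median ratio was lowest in regions whose longest locus was over 100 and up to 150 bp. Of these 182 regions, 152 had a lower scaled level in rdr2 than in wild type and 30 a higher one, and the median log2 ratio was −1.24 (−1.39 to −0.99), against −0.04 over all regions. The size rule called 39 of the 182 lower (21.4%) and 1 higher (0.549%). The same regions had a median log2 ratio of rdr6 to wild type of 0.24, from the same wild-type library. The median log2 ratio of rdr2 to wild type was nearer to 0 on both sides of this length. It was −0.20 for 31 to 60 bp, −0.46 for 61 to 100 bp and −0.40 for over 150 to 200 bp. For over 200 to 1000 bp it was 0.10 and for over 1000 bp 0.25. Of the 48 regions of 31 to 60 bp, 9 were called lower (18.75%) and 3 higher (6.25%). These length bands were set after the values were seen.

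Both thinly and deeply read regions of this band were low. In the band the median was −0.92 over 126 regions of under 200 reads and −1.61 over 56 regions of 200 or more reads. At 200 or more reads the neighbouring bands were also low. The median was −1.35 over 22 regions of 61 to 100 bp, 7 of them called lower. It was −1.13 over 52 regions of over 150 to 200 bp, 10 of them called lower. For over 200 to 1000 bp it was −0.50 over 248 regions of this depth, with 26 lower and 9 higher. In that class it was 0.19 over 795 regions of under 200 reads. For over 1000 bp it was 0.41 over 154 regions of 200 or more reads. A lower median at greater depth was thus not particular to this band. The median was −1.08 over the 145 regions of the band of over 100 to 150 bp that hold none of the 400 loci with most reads, with 29 called lower and 1 higher. Regions of 1 locus had a median of −2.45 over 7 of 31 to 60 bp (−6.21 to 1.96), with 3 lower and none higher. They had −1.38 over 18 of 61 to 100 bp and −1.29 over 19 of over 150 to 200 bp. In the band, the 46 regions of 1 locus had a median of −1.70, with 15 lower and none higher. The 136 regions of 2 or more loci in the band had −0.98, with 24 lower and 1 higher. Loci of this length that lie in regions with a longer locus, beyond 150 bp, had a median of −0.70 over 131 loci (−1.09 to −0.29), with 17 lower (13.0%) and 7 higher (5.34%), where 7.38% and 4.43% of all 2642 loci examined were lower and higher. Loci of over 150 to 200 bp in such regions had much the same median, −0.58 over 196 loci (−0.86 to −0.42). Regions under the read minimum gave another value, as the 683 of them in this length band had 641 reads in rdr2 and 1239 in wild type, a pooled ratio of 0.958 (0.869 to 1.05).

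Within this band the lowest region was that of Cluster_8974 to Cluster_8976, given above, where a locus of 122 bp held 98.8% of the reads. The region of Cluster_25612 and Cluster_25613 (scaffold_168, 766099 to 769134) had 183 reads in rdr2, 5018 in rdr6 and 2357 in wild type, 6.96-fold lower in rdr2 than in wild type (5.98 to 8.13). Cluster_27020 (scaffold_188, 352447 to 352559) had 9 reads in rdr2, 281 in rdr6 and 178 in wild type, 10.7-fold lower (5.50 to 23.7). Cluster_22326 (scaffold_130, 457145 to 457284) had 6 reads in rdr2, 159 in rdr6 and 117 in wild type, 10.5-fold lower (4.70 to 29.3). The region of Cluster_23165 and Cluster_23166 (scaffold_138, 1049890 to 1056982) had 7 reads in rdr2, 181 in rdr6 and 130 in wild type, 10.03-fold lower (4.73 to 25.4). In all 5 the rdr2 level was far below both others.

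**Figure D3:**
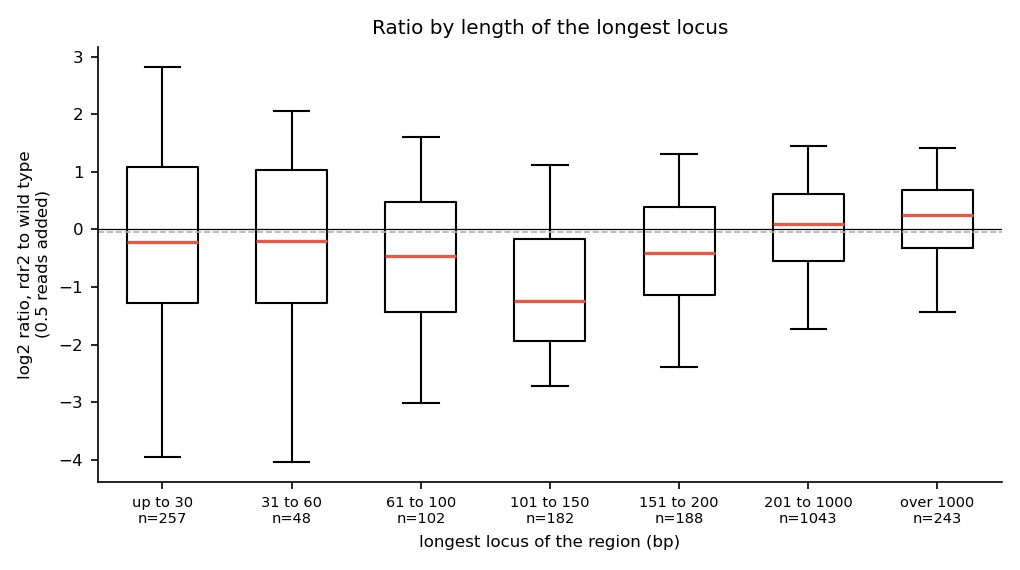
Log2 ratio of rdr2 to wild type (0.5 reads added) of the 2063 regions by length of their longest locus in bp. Orange lines are medians, boxes the quartiles, whiskers the 5th and 95th percentiles, and the dashed grey line the median of all regions, −0.04. The 182 regions of over 100 to 150 bp have the lowest median, −1.24.

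Over all lengths, the share of regions called went down with the number of loci. The size rule was met by 20.4% of the 313 regions of 1 locus (exact interval 16.1 to 25.3), 14.4% of the 369 regions of 2 loci, 7.81% of the 755 of 3 to 5, 6.84% of the 468 of 6 to 10 and 6.33% of the 158 with over 10. Among single-locus regions 48 were lower and 16 higher, and the median log2 ratio was −0.76 (−0.99 to −0.47). From 3 loci on the medians lay between 0.06 and 0.09. Within length classes the order was mixed. Single-locus regions were called more often than those of 2 or more loci at 31 to 200 bp (26.7% of 90 and 13.7% of 430) and at over 200 to 1000 bp (18.9% of 95 and 4.22% of 948). They were called less often up to 30 bp (19.3% of 109 and 25.7% of 148) and over 1000 bp (5.26% of 19 and 7.59% of 224). The part that summing over more loci has in this order was not tested.

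Pooled over all 14148 regions, with the 400 loci with most reads left out and no read minimum, the single-locus regions held 9.44% of the scaling reads of rdr2, 13.7% of those of rdr6 and 12.3% of those of wild type. Their pooled level was 1.30-fold lower in rdr2 than in wild type (1.27 to 1.34). Regions of 3 to 5 loci were at a pooled ratio of 1.11 (1.09 to 1.12). By length, regions with a longest locus of 31 to 200 bp held 15.6% of the scaling reads of rdr2, 26.8% of those of rdr6 and 23.9% of those of wild type, a pooled level 1.54-fold lower in rdr2 than in wild type (1.504 to 1.57). Regions with a longest locus of over 200 to 1000 bp held 50.4% in rdr2, 44.4% in rdr6 and 44.9% in wild type.

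**Figure D4:**
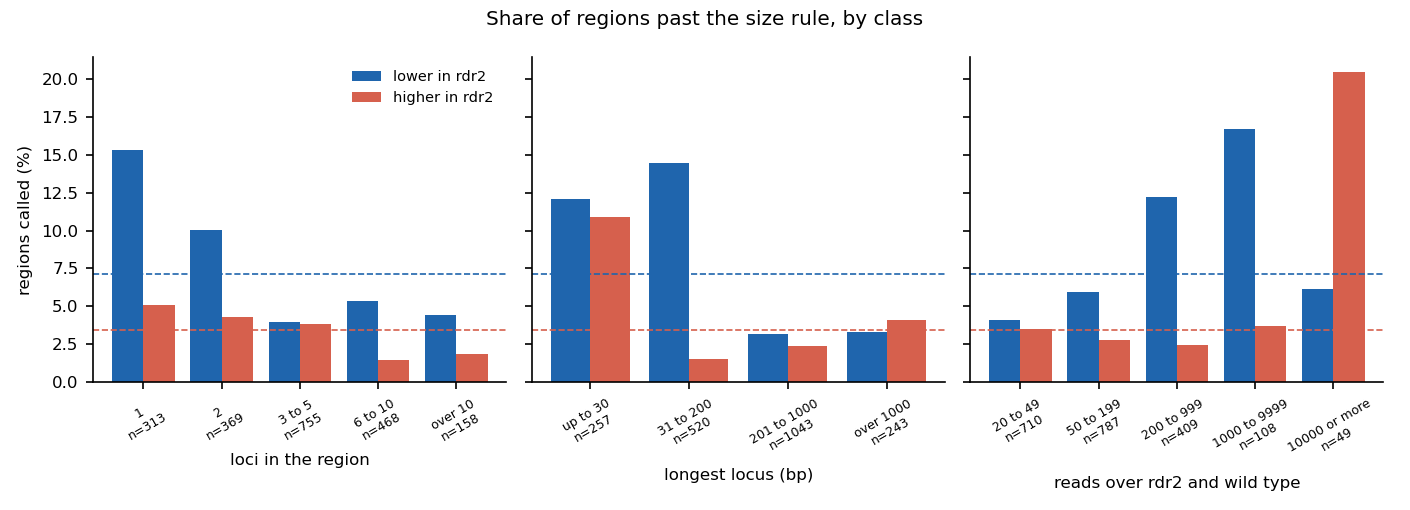
Percent of regions lower (blue) and higher (orange) in rdr2 by the size rule, by number of loci, by length of the longest locus and by reads over both libraries, with the number of regions of each class. Dashed lines are the shares over all 2063 regions, 7.13% lower and 3.44% higher. Lower calls peak at 1 locus, at 31 to 200 bp and at 1000 to under 10000 reads, and higher calls at 10000 or more reads.

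Regions with most reads went the other way on the scale used here. Of the 49 regions with 10000 or more reads over both libraries, 10 were higher in rdr2 (20.4%) and 3 lower, and 38 had a ratio above 1. The median log2 ratio was 0.89 (0.43 to 1.08), against −0.71 in the 108 regions of 1000 to under 10000 reads, where 4 were higher and 18 lower. The 10 higher regions had ratios between 4.16 and 7.30 on the scale used here and between 1.62 and 2.84 in RPM. In RPM none of the 10 was 4-fold higher, and the 36 uncalled regions ran between 0.183 and 1.10, against 0.469 and 2.83 here. The 10 higher regions held 74.0% of all nuclear reads of rdr2, 38.9% of those of rdr6 and 44.3% of those of wild type. They were picked by their ratio, so a larger share in rdr2 than in wild type follows from the pick. All 49 regions of this depth held 7205518 of 7375356 nuclear reads in rdr2 and 3793557 of 4188599 in wild type. Of the 10, 7 lay on scaffolds whose last listed locus ends within 100 kb, as did 27 of the 36 uncalled regions of this depth. Among all 2063 regions examined, 84 lay on such scaffolds.

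The region with most reads in both libraries was that of Cluster_39119 to Cluster_39122 (scaffold_699, 303 to 10023), with 1524454 reads in rdr2, 646321 in rdr6 and 585957 in wild type, 4.82-fold above wild type in rdr2 (4.80 to 4.83). That of Cluster_39201 to Cluster_39203 (scaffold_758, 1 to 9174) had 742870 reads in rdr2, 244979 in rdr6 and 227595 in wild type, 6.04-fold higher (6.02 to 6.07). The region of Cluster_39799 and Cluster_39800 (scaffold_4104, 629 to 9028) had 686508 reads in rdr2, 172712 in rdr6 and 174226 in wild type, a ratio of 7.30 (7.26 to 7.33). That of Cluster_15460 and Cluster_15461 (scaffold_73, 17124 to 20433) had 640202 reads in rdr2, 192324 in rdr6 and 165433 in wild type, a ratio of 7.17 (7.13 to 7.20). In these 4 regions rdr2 was high, and rdr6 had a lower scaled level than wild type. The scaled levels of rdr6 and wild type were 81373 and 116917 in the scaffold_4104 region and 90613 and 111016 in the scaffold_73 region. Not called was the region of Cluster_38944 to Cluster_38953 (scaffold_571, 14 to 40516), with 473035 reads in rdr2, 651978 in rdr6 and 460645 in wild type, at a ratio of 1.90 (1.89 to 1.91). The files do not say whether a read was counted in more than 1 of these regions.

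Inside regions, neighbouring loci did not always move as the region did. Among 541 regions with 2 or more loci of at least 20 reads, every such locus lay on the same side of a ratio of 1 in 298 (55.1%). This was so in 16 of 19 lower regions, 15 of 17 higher regions and 267 of 505 others, where the call itself favours loci on one side. In regions of 2 or more loci, the largest locus held a median of 98.8% of the reads in lower regions and 94.1% in higher regions, against 73.2% in the others. It held over 90% of the reads in 75 of 99 such lower regions, 30 of 55 higher regions and 500 of 1596 others.

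Several regions nevertheless held more than 1 locus past the size rule. In the region of Cluster_16760 to Cluster_16762 (scaffold_82, 31723 to 40098), with 764 reads in rdr2, 25 in rdr6 and 242 in wild type, Cluster_16760 was 5.41-fold and Cluster_16761 6.75-fold above wild type in rdr2. The region was 5.85-fold higher as a whole (5.05 to 6.78) and stood low in rdr6. The region of Cluster_38815 to Cluster_38821 (scaffold_539, 33023 to 51875) had 652 reads in rdr2, 9428 in rdr6 and 5126 in wild type and was 4.25-fold lower (3.91 to 4.61). Its 4 loci of 20 or more reads all lay below wild type, of which Cluster_38816 (5.62-fold) and Cluster_38817 (6.42-fold) met the size rule.

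In the region of Cluster_13502 to Cluster_13507 (scaffold_60, 873444 to 889712), with 42 reads in rdr2, 550 in rdr6 and 328 in wild type, Cluster_13502 and Cluster_13507 were 4.37-fold and 6.37-fold lower and lay at opposite ends. The region as a whole was 4.22-fold lower (3.05 to 5.96). The region of Cluster_5376 to Cluster_5395 (scaffold_18, 1576403 to 1601515) had 17 reads in rdr2, 162 in rdr6 and 154 in wild type, 4.89-fold lower (2.96 to 8.62). All 17 rdr2 reads lay in Cluster_5376, which was 2.51-fold lower and did not meet the size rule. Cluster_5379, of 4778 bp, had 0 reads in rdr2, 33 in rdr6 and 44 in wild type. Cluster_5382 had 0 reads in rdr2, 0 in rdr6 and 28 in wild type. Both passed the read minimum through wild type alone, which puts any such locus past the size rule. Their calls are therefore no result.

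In other called regions 1 locus alone met the size rule. In the region of Cluster_26830 to Cluster_26832 (scaffold_185, 722019 to 725079), which was 6.24-fold higher (5.31 to 7.35), Cluster_26830 had 556 reads in rdr2, 79 in rdr6 and 37 in wild type. Its neighbours Cluster_26831 and Cluster_26832 had ratios of 1.31 and 0.901. In that of Cluster_13888 to Cluster_13891 (scaffold_62, 1805677 to 1808776), 7.90-fold higher (6.202 to 10.2), Cluster_13890, of 148 bp, had 302 reads in rdr2, 39 in rdr6 and 25 in wild type. The region of Cluster_23086 to Cluster_23095 (scaffold_138, 329550 to 343146) was 4.66-fold lower (3.71 to 5.91) through Cluster_23090, with 10 reads in rdr2, 962 in rdr6 and 590 in wild type. Without Cluster_23090, its only locus among the 400 with most reads, the log2 ratio of the region was 0.026.

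The abundant region of Cluster_38905 to Cluster_38916 (scaffold_557, 23520 to 78960) held loci on both sides. It was 4.16-fold higher (4.14 to 4.18), with 591910 reads in rdr2, 325031 in rdr6 and 263676 in wild type. Cluster_38908 and Cluster_38911 were 7.002-fold and 5.84-fold higher, while 6 of its 12 loci lay below a ratio of 1. Among these were 3 loci of 127 bp each, Cluster_38906, Cluster_38910 and Cluster_38912, which were 2.09-fold to 2.42-fold lower in rdr2. With the 400 loci with most reads left out, which takes 11 of the 12 loci of this region, its log2 ratio was −0.89. In the scaffold_571 region Cluster_38949 and Cluster_38951, both 124 bp, were 2.14-fold and 2.21-fold lower, while the other 8 loci lay above 1. In the region on scaffold_802 of Cluster_39269 to Cluster_39271 (28064 to 37861), 4.95-fold higher (4.92 to 4.99), Cluster_39269 was 7.02-fold higher and the other loci 2.15-fold and 1.85-fold.

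**Figure D5:**
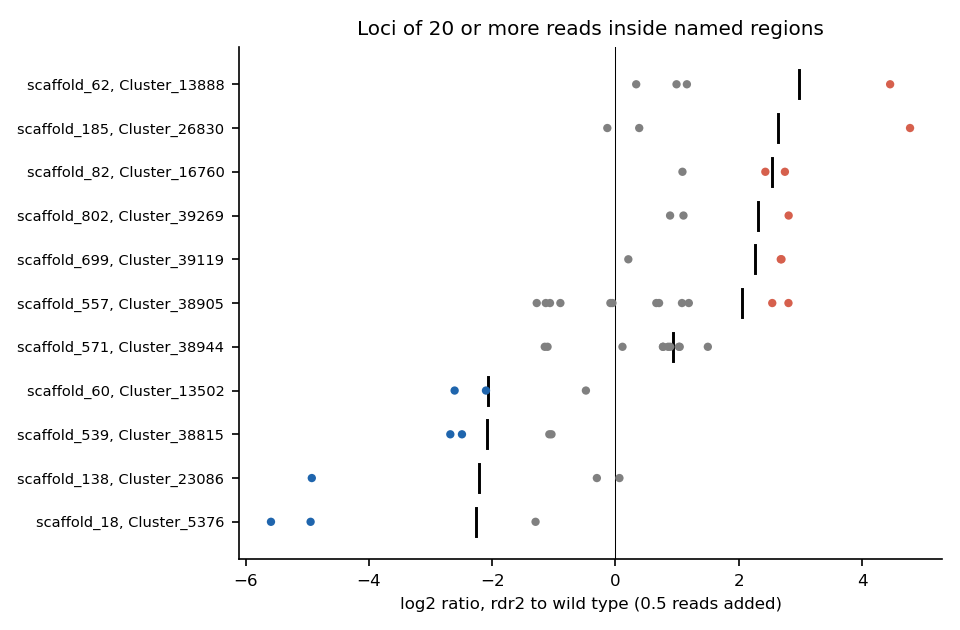
Log2 ratio of rdr2 to wild type (0.5 reads added) of each locus with 20 or more reads, for the named regions that hold at least 3 such loci. Orange loci are higher and blue loci lower in rdr2 by the size rule, grey loci neither, and black bars are the ratio of the whole region. Loci of the scaffold_557 region lie on both sides of 0, and all 4 loci of the scaffold_539 region lie below it.

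The regions with most loci had few reads in either library. The region of Cluster_30949 to Cluster_31015 (scaffold_250, 394787 to 466615) joined 67 loci and had 12 reads in rdr2, 47 in rdr6 and 49 in wild type, 2.21-fold lower in rdr2 than in wild type (1.16 to 4.56) and short of the size rule. That of Cluster_8714 to Cluster_8767 (scaffold_33, 1993041 to 2069344) joined 54 loci and had 16 reads in rdr2, 70 in rdr6 and 51 in wild type, 1.72-fold lower with an interval that includes 1 (0.966 to 3.23). That of Cluster_16874 to Cluster_16925 (scaffold_83, 353376 to 413285) joined 52 loci and had 10 reads in rdr2, 141 in rdr6 and 97 in wild type, 5.24-fold lower (2.73 to 11.3). Cluster_16911, a locus of 4459 bp in it, had 2 reads in rdr2, 57 in rdr6 and 50 in wild type. Of the 15 examined regions with over 20 loci, 3 were lower and none higher, with a median log2 ratio of −0.22 (−1.43 to 0.66).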

How the data were processed

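Per the file headers, the deposited tables share 39975 loci and hold for each a read count and that count scaled by the authors to the library total (RPM). Bowtie 0.12.9 and SAMtools are named in the submitters' processing notes. The sources used here do not give the genome build, the locus caller, strand or how reads that match several places were placed, and no genome or annotation of the files' build was used. Dividing the counts by the deposited RPM values gave library totals of 9703597 reads for rdr2 (89.6% in loci), 9346061 for rdr6 (86.4%) and 6992269 for wild type (84.8%). Only counts were compared. RPM gave the totals of 1 alternative scaling.

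Coordinates are those of the files. Nuclear loci, whose names begin with scaffold_, were merged when consecutive loci lay no more than 10 kb apart. Ratios are scaled counts of rdr2 over wild type with exact Clopper-Pearson 95% intervals. Log2 ratios had a pseudocount of 0.5 reads added before scaling. The floor is 3 reads per library. Reads amplified by PCR and lacking molecular identifiers do not each stand for a molecule, so intervals and floors cover counting error at most. Where 1 library had no read, the call rested on the interval alone. No p-values were computed.

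The regions, lists and classes were chosen with earlier results of these data known. Named are the 10 highest and 10 lowest regions by the interval bound nearest to 1, the 5 with most reads in each of rdr2 and wild type, up to 5 called each way among regions with at least 3 loci of 20 or more reads, up to 5 without a read in 1 library in each direction, and the 3 with most loci. The 5 lowest regions of the length band over 100 to 150 bp were named after their values were seen. Alternatives were the scaling, the merge distance, the read minimum, the size rule, the pseudocount and leaving the 400 loci with most reads out of the sums. The code was tested on simulated data. Tables were handled with pandas 2.3.3 and numpy 2.4.6 in Python 3.11.15, intervals came from scipy 1.17.1 and plots from matplotlib 3.10.9.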

Additional observations from a re-analysis of the deposited data

Results flagged for a closer look

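Reads outside the nuclear regions were above their wild-type level in rdr2 on the scale used here. Pooled plastid reads, 1277357 in rdr2 and 1656110 in wild type over 17 loci, gave a ratio of 1.43 (1.42 to 1.43), and pooled mitochondrial reads, 45411 in rdr2 and 81545 in wild type over 51 loci, a ratio of 1.03 (1.02 to 1.04). Both directions turn with the scaling, since the same ratios in RPM were 0.556 for plastid and 0.401 for mitochondrial reads. In the rdr6 library, 151 regions that fell under the read minimum here had 20 or more reads, and 14 of them were above wild type by the same size rule. These regions were picked by many rdr6 and few wild-type reads, so the 14 calls are no result. No difference between the mutants was tested.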

How the results depend on the processing

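With 147 regions lower and 71 higher as the base, RPM totals gave 615 and 13, all nuclear reads 824 and 7, and nuclear reads outside the 100 loci with most reads 80 and 107. A size rule of 2-fold with an interval beyond 1 gave 433 and 278, and one of 8-fold 57 and 18. Higher regions numbered 117 among unmerged nuclear loci and 46 with a minimum of 50 reads. The median log2 ratio of −0.04 became −1.41 in RPM, −1.75 with all nuclear reads, 0.32 and −0.19 outside the 100 and the 1000 loci with most reads, 0.083 with TMM factors, −0.11 with a minimum of 50 reads and −0.33 with a minimum of 1 read. Other merge distances (1, 5 and 20 kb), median-of-ratios factors, a minimum of 10 reads and leaving the 400 loci with most reads out of the sums kept both counts within 1.5 times, as TMM factors and the 1000-locus scaling did. In RPM the called share was 52.4%, 35.0%, 25.4%, 24.6% and 17.7% for regions of 1, 2, 3 to 5, 6 to 10 and over 10 loci, so its order held. It was 37.7%, 50.2%, 22.0% and 16.9% for longest loci up to 30, 31 to 200, over 200 to 1000 and over 1000 bp, and 23.2%, 27.7%, 43.5%, 55.6% and 14.3% by reads in ascending classes. With a minimum of 50 reads it was 22.0% for 31 to 200 bp. Leaving the 400 loci with most reads out turned 2 of the named regions, scaffold_557 of Cluster_38905 to −0.89 and scaffold_138 of Cluster_23086 to 0.026 in log2, since those loci held most of their reads. The scalings only shift all ratios together. No paired analysis was possible because there is 1 library per genotype. The 710 regions of under 50 reads have the widest intervals, which limits what can be called there.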

Other observations

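Called loci inside a region went in opposite directions in 2 of the 541 regions with 2 or more well-read loci, both named here after their values were seen. On scaffold_74, Cluster_15748 (1675804 to 1675824) had 0 reads in rdr2, 1 in rdr6 and 22 in wild type, while Cluster_15749 (1678638 to 1678656), the next listed locus, had 49 in rdr2, 16 in rdr6 and 13 in wild type, 6.98-fold higher in rdr2 (3.73 to 14.0). On scaffold_252, Cluster_31177 (538029 to 538246) had 24 reads in rdr2, 7 in rdr6 and 5 in wild type, 8.89-fold higher (3.32 to 29.8), and Cluster_31184 (542503 to 542654) had 15 in rdr2, 181 in rdr6 and 117 in wild type, 4.21-fold lower. Cluster_15748 passed the read minimum through wild type alone, so its call is no result. Neither region was called as a whole. In all, 92 loci past the size rule lay in 89 regions that were not called.

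Regions under the read minimum, when pooled, had nearly the same level in both libraries, with 6691 reads in rdr2 and 12948 in wild type and a pooled ratio of 0.957 (0.929 to 0.986). The 26 of them with a longest locus over 1000 bp were an exception, picked out after the values were seen, with 17 reads in rdr2 and 102 in wild type, a pooled level 3.24-fold lower (1.93 to 5.78).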
